A study of Homo sapiens with 6 samples.

Results

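The guanylate-binding proteins GBP1 to GBP5 and the apolipoproteins L APOL1, APOL2, APOL3, APOL4 and APOL6 are 10 interferon-inducible genes, taken by name from the 57316 gene names of the count files. They were measured in THP-1, a human monocytic leukaemia cell line, after exposure to the phorbol ester PMA (100 ng/ml, 48 h), which gives the cells macrophage features. The control libraries (n = 3) came from such cells kept with a control solution and the CXCL10 libraries (n = 3) from such cells kept for 24 h with 100 ng/ml recombinant human CXCL10, a chemokine that binds the receptor CXCR3. Both groups carry the replicate numbers 1, 3 and 4, both received PMA, and all libraries are of 1 cell line. Whether the replicates were grown as separate cultures is not stated in the labels. The p-values therefore cover the spread among these 6 libraries alone, and that spread may be technical.

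Guanylate-binding proteins are large GTPases of the dynamin superfamily that interferon-gamma induces strongly in macrophages. They assemble on cytosolic bacteria and on vacuoles that hold pathogens, and GBP1 binds bacterial lipopolysaccharide and helps recruit caspase-4, which cleaves gasdermin D. Apolipoproteins L are lipid-binding proteins. APOL1 is secreted and forms part of the trypanosome-killing particles of human serum, whereas its relatives remain inside the cell, where APOL3 disrupts bacterial membranes that guanylate-binding proteins have opened to it. Transcription of both families is induced through interferon-responsive promoter elements, among them those called GAS and ISRE.

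The guanylate-binding genes form a cluster on chromosome 1 and the apolipoprotein L genes a cluster on chromosome 22 (hg38). In the count files GBP1 spans chr1:89052319-89065230, GBP2 chr1:89106132-89150456, GBP3 chr1:89006679-89022894, GBP4 chr1:89181144-89198942 and GBP5 chr1:89258950-89272804, all on the minus strand. On chromosome 22, APOL3 spans chr22:36140330-36166177, APOL4 chr22:36189124-36204840 and APOL2 chr22:36226209-36239954 on the minus strand, and APOL1 chr22:36253010-36267530 and APOL6 chr22:35648446-35668404 on the plus strand. RefSeq promoter sequences (GRCh38.p14) matched 3 of the 10 genes. These 3, GBP1, GBP3 and GBP4, are shown for that reason alone. Each line holds the 100 bases from 150 to 51 bases before the RefSeq start, 5′ to 3′ on the gene's strand, which is minus for all 3, and capitals mark a match to the ISRE core GAAANNGAAA on either strand:
GBP1, chr1:89065259-89065358: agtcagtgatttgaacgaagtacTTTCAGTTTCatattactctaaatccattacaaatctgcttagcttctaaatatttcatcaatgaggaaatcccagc
GBP3, chr1:89022917-89023016: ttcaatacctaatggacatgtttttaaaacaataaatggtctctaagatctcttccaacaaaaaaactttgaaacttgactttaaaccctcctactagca
GBP4, chr1:89198993-89199092: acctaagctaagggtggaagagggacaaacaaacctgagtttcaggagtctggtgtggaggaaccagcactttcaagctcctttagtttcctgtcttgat

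Over the full 250 bases before the start, both strands were searched for the ISRE core and for the GAS letters TTCNNNGAA, which do not overlap each other in these promoters. GBP1 held the 1 ISRE core shown above, 127 to 118 bases before its start and read on the opposite strand. GBP3 held 1 GAS match, TTCCTTGAA, 15 to 7 bases before its RefSeq start and downstream of the start in the count files' annotation, and GBP4 held neither motif. Among 35116 RefSeq promoter windows of the same length, 3.02% held the ISRE core and 6.57% the GAS letters. These matches describe the letters in the windows and not binding.

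Library totals ran from 34.8 to 41.0 M reads, the highest being CXCL10 replicate 3. The monocyte and macrophage markers CD14, CSF1R, ITGAM, FCGR1A, PTPRC, SPI1 and CD33 were all tested, and their list summed to 2544 to 2682 CPM (counts per M reads of the library, scaled between libraries) in controls and 2592 to 2761 CPM with CXCL10. CSF1R made up most of that sum, and ITGAM, an integrin subunit, and PTPRC, the phosphatase CD45, had unadjusted p under 0.05, with log2 fold changes of 0.32 and 0.45 (edgeR adjusted p = 0.683 for both). CD68 had 0 to 5 reads per library, and 85.6% of its exon length is shared with other annotated genes, whose common reads were not counted. Defining markers of other cells were low: the summed lists reached at most 0.569 CPM for T cells, 2.78 for B cells, 3.48 for endothelium, 0.378 for epithelium and 2.37 for fibroblasts. Of the endothelial genes VWF, the von Willebrand factor gene, was tested, and it ran from 1.05 to 1.93 CPM in controls and from 2.04 to 3.37 CPM with CXCL10, at a log2 fold change of 0.73 (edgeR adjusted p = 0.683). The part of these marker differences in the members' values was not tested. MS4A1, EPCAM and KRT5 had 0 reads in every library, which allows up to 0.139 to 0.179 CPM (3 fragments or up to 6 reads, counting error only).

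None of the guanylate-binding protein or apolipoprotein L genes passed edgeR's quasi-likelihood test of CXCL10 against control, fitted over all genes. APOL4 was too low to be tested, and of the 9 tested members 0 passed an adjusted p of 0.05, as did 0% of all 16531 genes tested. None of the 9 had an unadjusted p under 0.05 either, against 7.14% of all genes (1181). All 5 guanylate-binding genes had log2 fold changes above 0, and their median was 0.15. The 4 tested apolipoprotein L genes had a median of -0.05, with 1 of 4 above 0. Scaled by library size alone, the apolipoprotein L median turned to 0.03 and the guanylate-binding median was 0.24. Every tested member had a higher value under that scaling, with APOL1 at 0.09 instead of 0.02 and APOL3 at -0.18 instead of -0.26. With each library's trend with gene length taken out, the apolipoprotein L median was -0.11 and the guanylate-binding median 0.09. Over all genes tested the median in the main fit was 0.02 and 54.0% lay above 0. In bulk RNA, more transcripts per cell and more cells that express a gene cannot be told apart.

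**Figure D1:**
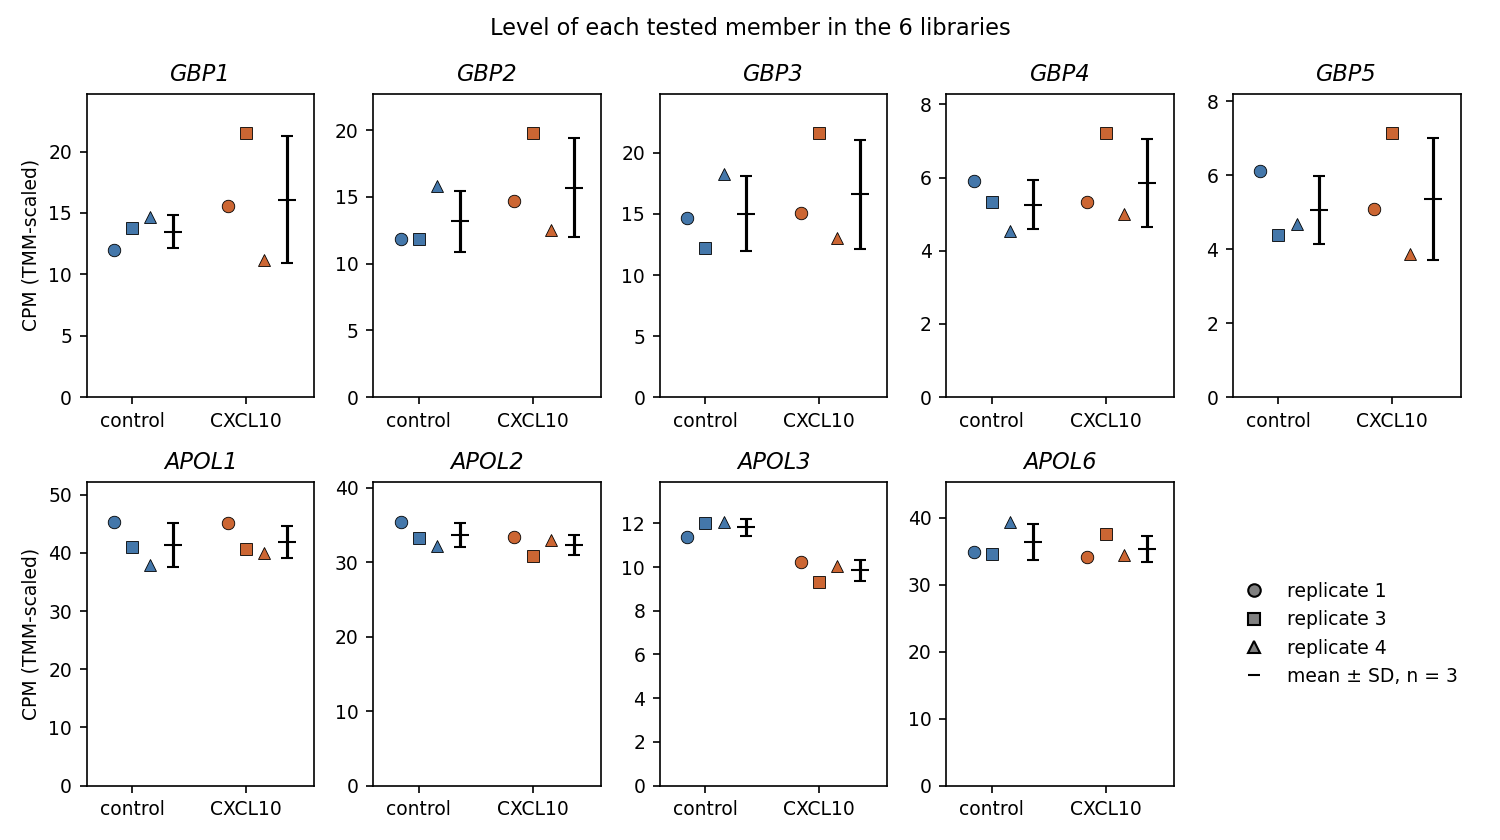
Level of each tested member in CPM (linear axes from 0), with 1 point per library, control in blue and CXCL10 in orange, and the mean ± SD of 3 libraries beside them. CXCL10 replicate 3 (orange square) is the highest library for all 5 guanylate-binding genes, and APOL3 is the 1 tested member whose groups do not overlap.

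The guanylate-binding genes with the more abundant reads come first. GBP1, the member that binds lipopolysaccharide, measured 12.0, 13.8 and 14.6 CPM in control replicates 1, 3 and 4. With CXCL10 it measured 15.6, 21.5 and 11.2 CPM in replicates 1, 3 and 4. The CXCL10 group held both the highest and the lowest library. The group means were 13.5 ± 1.34 and 16.1 ± 5.19 CPM (SD, n = 3 each), with a log2 fold change of 0.26 ± 0.21 (SE, edgeR adjusted p = 0.805). The 95% interval ran from 0.873-fold to 1.64-fold.

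GBP2, which joins the protein coat that GBP1 begins on bacteria, measured 11.9, 11.9 and 15.8 CPM in the controls. With CXCL10 it measured 14.7, 19.8 and 12.6 CPM, in the same order of replicates. The groups overlapped, as control replicate 4 was above CXCL10 replicates 1 and 4. Its log2 fold change was 0.25 ± 0.19 (SE, edgeR adjusted p = 0.790), with an interval from 0.893-fold to 1.59-fold. GBP3 was the most abundant guanylate-binding gene in reads. It measured 14.6, 12.2 and 18.2 CPM in the controls and 15.1, 21.6 and 13.1 CPM with CXCL10. GBP3 also overlapped between groups, with control replicate 4 second to CXCL10 replicate 3. The log2 fold change of GBP3 was 0.15 ± 0.21 (SE, edgeR adjusted p = 0.894), with an interval from 0.814-fold to 1.51-fold.

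GBP4 and GBP5 were the scarcer guanylate-binding transcripts. GBP4, whose protein has been described as a brake on the interferon regulatory factor IRF7, measured 5.90, 5.34 and 4.54 CPM in the controls and 5.34, 7.21 and 4.99 CPM with CXCL10. GBP5, which promotes NLRP3 inflammasome assembly and restrains the protease furin, measured 6.11, 4.39 and 4.69 CPM in the controls and 5.10, 7.14 and 3.87 CPM with CXCL10. Both overlapped between groups, and CXCL10 replicate 3 was again the highest library. The log2 fold change of GBP4 was 0.15 ± 0.21 (SE, edgeR adjusted p = 0.887), and its interval ran from 0.818-fold to 1.51-fold. That of GBP5 was 0.09 ± 0.24 (SE, edgeR adjusted p = 0.951), and its interval ran from 0.744-fold to 1.52-fold. GBP5 rested on 138 to 308 reads per library and GBP4 on 152 to 311.

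Each of the 5 guanylate-binding genes was highest in CXCL10 replicate 3, which was the highest library for 25.5% of all genes tested. The log2 level of that library above the gene's mean over 6 libraries was 0.57 for GBP1, 0.48 for GBP2, GBP3 and GBP5, and 0.39 for GBP4. Their summed level was 77.3 CPM there and 45.6 to 57.9 CPM in the other 5 libraries. CXCL10 replicate 4 had the lowest sum, 45.6 CPM, and replicate 1 had 55.8 CPM, between the controls at 47.5, 50.5 and 57.9 CPM. Without CXCL10 replicate 3 the median log2 fold change of the 5 genes was -0.02, with 1 of 5 above 0: GBP1 had -0.0020, GBP2 0.06, GBP3 -0.08, GBP4 -0.02 and GBP5 -0.17. Without control replicate 4, the library that differed most from the other controls, the median was 0.31 and GBP2, at 0.41, had an unadjusted p of 0.0465 (edgeR adjusted p = 0.997). In that fit 1 of the 9 members and 649 of all 17116 genes tested had an unadjusted p under 0.05. Without CXCL10 replicate 4 the median was 0.29 and GBP1, at 0.46, had an unadjusted p of 0.0420 (edgeR adjusted p = 0.999). There too 1 of the 9 members had an unadjusted p under 0.05, as did 649 of all 17119 genes tested.

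**Figure D2:**
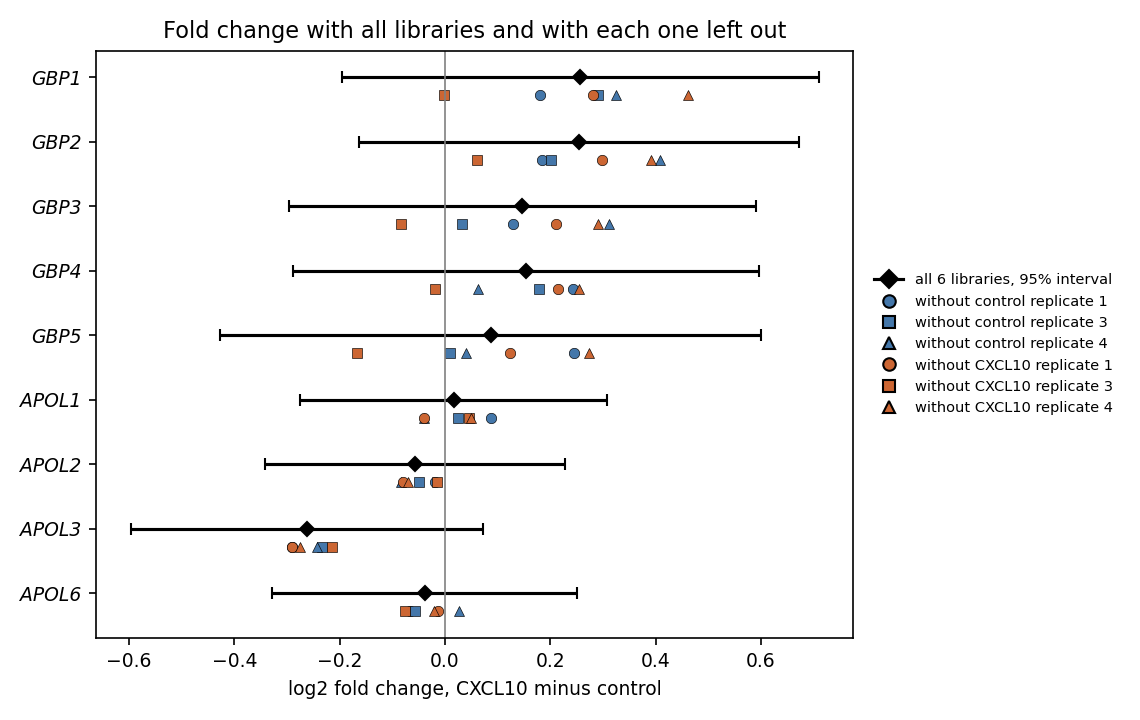
The log2 fold change (CXCL10 minus control) of each tested member from all 6 libraries (black diamond, 95% interval), with the value after leaving out each library in turn below it. All 9 intervals contain 0, and leaving out CXCL10 replicate 3 (orange square) moves the guanylate-binding genes to between -0.17 and 0.06.

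The apolipoproteins L varied less between libraries. APOL1, the secreted member, measured 45.4, 41.0 and 37.8 CPM in the controls and 45.1, 40.7 and 39.9 CPM with CXCL10. Its group means were 41.4 ± 3.78 and 41.9 ± 2.80 CPM (SD, n = 3 each), with a log2 fold change of 0.02 ± 0.14 (SE, edgeR adjusted p = 0.987). The 95% interval of APOL1 ran from 0.826-fold to 1.24-fold. APOL2, its intracellular neighbour on the opposite strand, measured 35.5, 33.3 and 32.2 CPM in the controls and 33.4, 30.8 and 32.9 CPM with CXCL10. The log2 fold change of APOL2 was -0.06 ± 0.13 (SE, edgeR adjusted p = 0.943), with overlapping groups.

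APOL3, the membrane-disrupting member, was lower in all 3 CXCL10 libraries than in any control. It measured 11.4, 12.0 and 12.1 CPM in the controls and 10.2, 9.30 and 10.04 CPM with CXCL10, or 11.8 ± 0.397 and 9.85 ± 0.487 CPM (SD, n = 3 each). Its log2 fold change was -0.26 ± 0.16 (SE, edgeR adjusted p = 0.740), with an interval from 0.661-fold to 1.05-fold, so APOL3 did not pass the test. Among all genes tested, 6.48% had every CXCL10 library below every control, and 1 of the 9 tested members did. The opposite arrangement held for 5.76% of all genes and for 0 of the 9. The APOL3 difference stayed between -0.29 and -0.21 when each library was left out in turn and between -0.34 and -0.18 in the other settings. As its groups did not overlap, leaving out a library could hardly turn its direction.

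APOL6, whose protein carries a BH3-like motif and can promote cell death, measured 34.9, 34.6 and 39.4 CPM in the controls and 34.1, 37.5 and 34.4 CPM with CXCL10. Its groups overlapped, with a log2 fold change of -0.04 ± 0.13 (SE, edgeR adjusted p = 0.961). APOL4, a family member with little known function, had 4, 3 and 0 reads in the controls and 0, 2 and 0 reads with CXCL10. All of these lie under the limit of 6 reads, so no fold change is given. The summed apolipoprotein L level was 121 to 127 CPM in controls and 117 to 123 CPM with CXCL10. Per library there were 0.397, 0.393 and 0.476 guanylate-binding reads for each apolipoprotein L read in the controls and 0.455, 0.653 and 0.389 with CXCL10.

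Levels can be compared between genes only per length, and the order can change with the length used. Here it was the length of all annotated exons of a gene, 7223 bases for GBP2, 8143 for GBP5 and 10065 for APOL6. The longest coding transcripts of these genes had 2220, 4699 and 10121 bases, so GBP2 and GBP5 were divided by much more than that transcript and APOL6 was not. An order by transcript length was not tested, and the ranks below hold for exon length alone. By CPM per kb of exon, averaged over the 6 libraries, APOL1 was highest at 11.8 ± 0.850 (SD, n = 6), above APOL2 at 9.66 ± 0.449. GBP3 followed at 3.69 ± 0.823, then APOL6 at 3.56 ± 0.214, GBP1 at 3.04 ± 0.756, GBP2 at 1.998 ± 0.426 and APOL3 at 1.84 ± 0.194 CPM per kb. GBP4 at 0.905 ± 0.151 and GBP5 at 0.641 ± 0.148 were the lowest tested members, and APOL4 had 0.00873 ± 0.0104. The ranges over libraries did not overlap between APOL1 and APOL2, between APOL2 and GBP3, between APOL3 and GBP4, or between GBP5 and APOL4. The neighbours from GBP3 down to APOL3, and GBP4 and GBP5, overlapped in range. Among the genes tested, APOL1 lay at the 79.4th percentile by this measure, GBP3 at the 57.9th and GBP5 at the 26.5th.

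**Figure D3:**
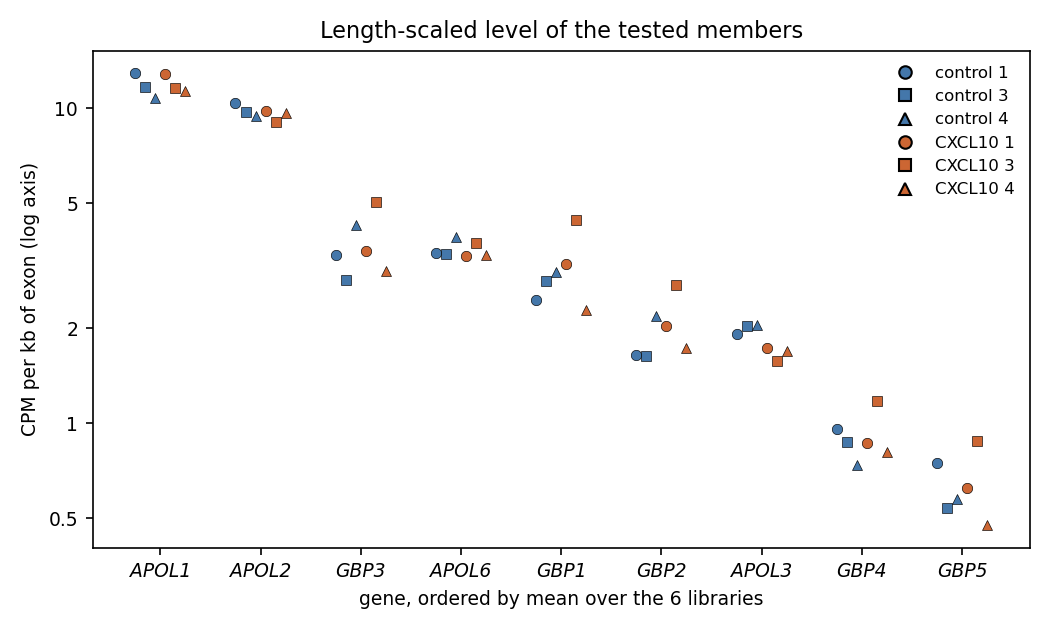
CPM per kb of exon (log axis) of the 9 tested members, with 1 point per library, ordered by the mean over the 6 libraries. APOL1 and APOL2 stand apart at the top, at 9.01 to 12.9 CPM per kb, and GBP4 and GBP5 at the bottom, at 0.475 to 1.17 CPM per kb.

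Similar copies and shared exons limit some of these levels, since reads mapped to several places or over 2 genes were not counted. Of the 50-base windows of the longest coding GBP1 transcript (GENCODE 29), 13.3% also occur in transcripts of another gene, first of all the pseudogene GBP1P1 and then GBP3 and GBP2. The share was 4.14% for GBP3 and 3.09% for GBP2, shared with GBP1, GBP1P1 and each other, and 4.08% for GBP4 and 0.710% for GBP5, whose most frequent partners are genes outside the families. Among the apolipoproteins L it was 4.71% for APOL1, 1.93% for APOL2, 0.978% for APOL4 and 0.238% for APOL6, again with genes outside the families as the most frequent partners, and 0.252% for APOL3, whose shared windows lie in APOL1. GBP2 shares 8.60% of its exon length with GBP7 on the same strand, and GBP4 and GBP5 share 2.41% and 3.98% with annotated genes on the opposite strand. None of the apolipoprotein L genes shares exon sequence positions with another annotated gene. GBP1P1 itself had 2 to 12 reads per library and was not tested.

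Genes upstream of both families were expressed, and none passed the test. The list of interferon receptors, Janus kinases, downstream factors and their inhibitors had 15 tested genes, of which 0 passed in either direction, and their median log2 fold change was 0.07. The members with the lowest p were IFNAR2, a subunit of the type I interferon receptor, at -0.46 ± 0.24 (SE, edgeR adjusted p = 0.702), and SOCS1, an inhibitor of Janus kinases, at -0.59 ± 0.35 (SE, edgeR adjusted p = 0.745). IFNAR2 was highest in control replicate 4 at 6.91 CPM and lay between 3.13 and 4.29 CPM in the other 5 libraries. SOCS1 had 23 to 50 reads per library. The median of the list ran from 0.02 without CXCL10 replicate 3 to 0.14 without control replicate 1.

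Most other members of the families, and IRGM, had few or no reads. GBP7 and APOL5 had 0 reads in every library, GBP6 had 2 reads in 1 control and 0 elsewhere, and IRGM, an autophagy-linked GTPase, had 0 to 6 per library. Of the 8 genes listed 3 were tested, 0 passed in either direction, and the median was -0.02. Without control replicate 1 that median was 0.20, again with 3 genes tested. In 3 other fits 4 genes passed the filter, so the set of genes changed as well. There the median was -0.28 without control replicate 4, -0.20 without CXCL10 replicate 1 and -0.15 without CXCL10 replicate 4. All of these medians rest on few genes. GVINP1, a pseudogene of a giant interferon-induced GTPase, had -0.42 ± 0.62 (SE, edgeR adjusted p = 0.900). MX1, an antiviral GTPase, had -0.02 ± 0.38 (SE, edgeR adjusted p = 0.995). MX1 ran from 4.51 CPM in control replicate 4 to 20.1 CPM in control replicate 1, a wider range than that of any guanylate-binding gene relative to its level.

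Of the other interferon-gamma-induced genes, 12 of 15 were tested, 0 passed in either direction, and the median log2 fold change was 0.04. TAP1, a peptide transporter of antigen presentation, had 0.44 ± 0.26 (SE, edgeR adjusted p = 0.734) and CIITA, the master regulator of HLA class II genes, 0.75 ± 0.52 (SE, edgeR adjusted p = 0.765), from 6 to 24 reads per library. TAP1 was at 26.6 CPM in control replicate 4 and at 57.3 to 78.5 CPM elsewhere. All 15 type I interferon-stimulated genes were tested, 0 passed in either direction, and their median was -0.10. ISG15, a ubiquitin-like modifier, had -0.49 ± 0.23 (SE, edgeR adjusted p = 0.694), and IFI6, a mitochondrial and reticulum protein, had -0.32 ± 0.18 (SE, edgeR adjusted p = 0.719). With control replicate 4 left out the type I median was -0.33, and with control replicate 1 left out it was 0.20. It was -0.04 without control replicate 3, -0.21 without CXCL10 replicate 1 and 0.14 without CXCL10 replicate 4. That of the other interferon-gamma-induced genes lay from -0.08 without CXCL10 replicate 3 to 0.09 without control replicate 3, with -0.02 when control replicate 4 was left out and 0.01 when CXCL10 replicate 1 was.

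The order of the libraries differed between the guanylate-binding genes and these lists. The mean log2 deviation of the type I genes was highest in control replicate 1 (0.52) and lowest in control replicate 4 (-0.62), where the guanylate-binding genes had -0.05 and 0.00. In CXCL10 replicate 3 the 3 tested interferon-inducible GTPases and relatives outside the members had 0.27, the type I list 0.17, the other interferon-gamma-induced genes 0.11, the upstream genes 0.07, the apolipoproteins L -0.07 and the inflammasome list -0.10, against 0.48 for the guanylate-binding genes. Of the 3 GTPases and relatives, GVINP1 rested on 5 to 31 reads per library. MX1 and MX2 lay near their means in CXCL10 replicate 3, at 11.9 against 12.5 CPM and 19.8 against 19.3 CPM. In CXCL10 replicate 4, where the guanylate-binding genes were lowest (-0.26), the type I list had -0.47. CXCL10 replicate 3 was the highest library for 0 of 3 of those GTPases and relatives, 2 of 15 type I genes, 2 of 12 other interferon-gamma-induced genes, 5 of 15 upstream genes and 2 of 10 inflammasome genes. The part of the single library in the guanylate-binding values beyond these numbers was not tested.

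**Figure D4:**
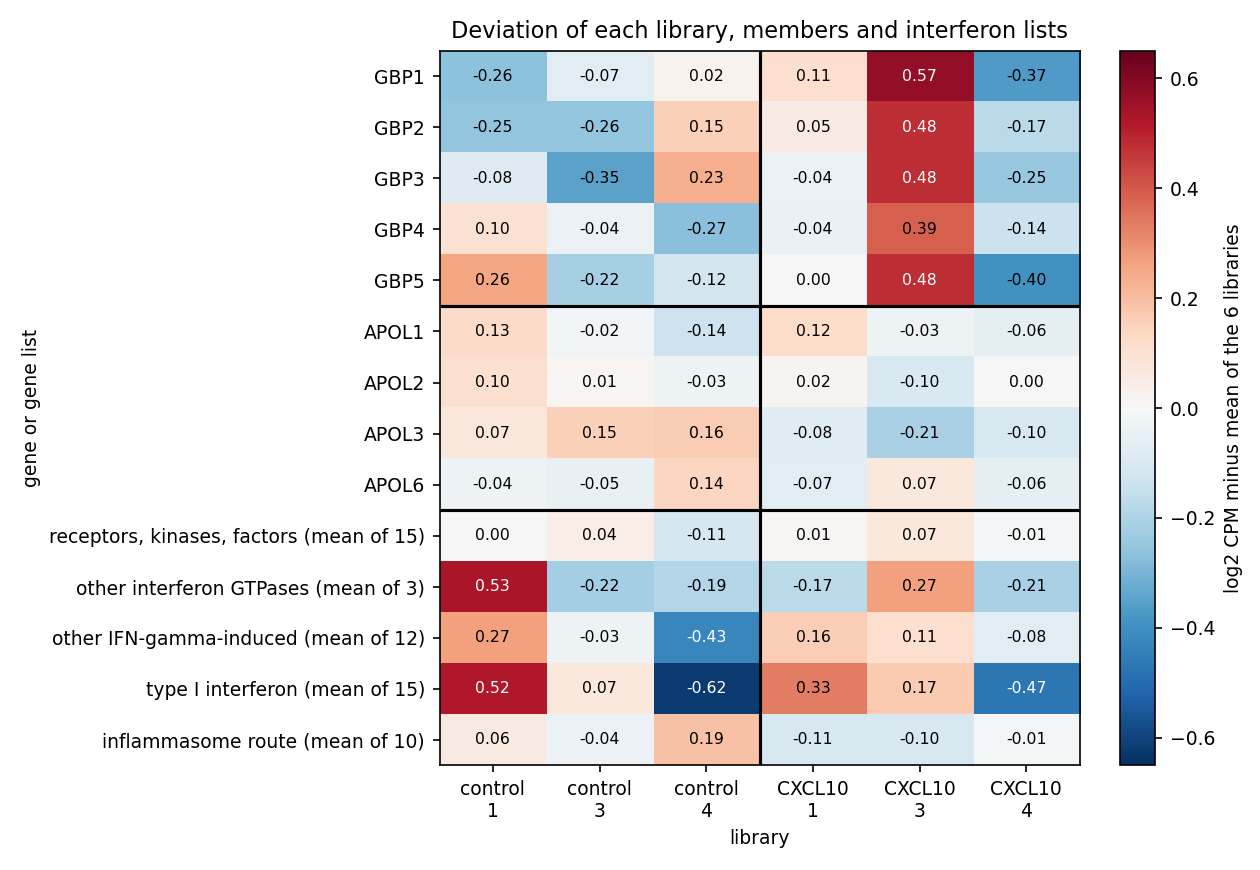
Log2 CPM of each library minus the mean of the 6 libraries, for each tested member (upper 2 blocks) and as the mean over the tested genes of 5 interferon and inflammasome lists (lower block). Guanylate-binding genes reach 0.39 to 0.57 in CXCL10 replicate 3, whereas the type I list is highest in control replicate 1 (0.52).

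The inflammasome route in which guanylate-binding proteins act had 10 tested genes, of which 0 passed in either direction, and a median log2 fold change of -0.19. PYCARD, the adaptor ASC, had -0.78 ± 0.28 (SE, edgeR adjusted p = 0.683), with 80.0 CPM in control replicate 4 and 24.8 to 35.2 CPM in the other 5 libraries. IL1B, the interleukin-1 beta gene, had -0.42 ± 0.15 (SE, edgeR adjusted p = 0.683). Its means were 1144 ± 134 CPM in controls and 852 ± 146 CPM with CXCL10 (SD, n = 3 each). The groups of IL1B overlapped, with 996 CPM in control replicate 4 and 1021 CPM in CXCL10 replicate 4. PYCARD and IL1B were the 2 of 10 genes with an unadjusted edgeR p under 0.05, against 7.14% of all genes. CASP4, the caspase that GBP1 helps recruit, had -0.02 ± 0.18 (edgeR adjusted p = 0.988). The median of the list was -0.09 without control replicate 4 and -0.11 without CXCL10 replicate 3. It reached -0.24 when control replicate 3 was left out and -0.25 when CXCL10 replicate 1 was.

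Genes whose library pattern lay closest to a member were sought by the root-mean-square difference of log2 deviations over the 6 libraries, among genes with at least 5 CPM. For GBP3, the most abundant guanylate-binding gene in reads, the 5 closest of 10296 were CEP78 (0.0434), BLM (0.0642), POLQ (0.0651), EIF5B (0.0659) and TTC27 (0.0701). GBP2 ranked 14th with 0.0982, GBP1 460th with 0.183, GBP5 1091st with 0.216 and GBP4 2264th with 0.259, and APOL6 lay between the last pair at 1298th with 0.225. For APOL1 the closest were UNK (0.0159), RABL2A (0.0175), SAFB2 (0.0212), SPPL2B (0.0234) and ZNF629 (0.0300), and APOL2 ranked 285th with 0.0707. APOL6 ranked 3353rd and APOL3 4340th for likeness to APOL1.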

How the data were processed

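Polyadenylated RNA of 6 libraries was prepared with a stranded mRNA ligation kit, per the labels' protocols. The deposited values are raw read counts per gene name, which the authors made with featureCounts 2.0.6 on exons of GENCODE 30, per the file headers. Trim Galore, STAR and build hg38 are named in the submitters' processing notes. The command line counted mates singly (66.8% to 75.8% of counts from 1 to 20 were even) and set no strand. Groups follow the labels. With edgeR 4.0.16 (R 4.3.3), genes were filtered by filterByExpr, scaled by TMM and tested by the quasi-likelihood test with group as the only term, with Benjamini-Hochberg adjustment over all 16531 genes. CPM uses the same scaling. Standard errors come from the fold change and its F statistic. The script was run on simulated counts with no library set apart, so that run does not cover an outlying library. No pair of libraries was identical or within sampling noise (chi-square per degree of freedom at least 6.83). Alternatives used DESeq2 1.42.0, limma 3.58.1, other scaling, filters and units, a replicate block and each library left out. All 10 members were named. From each list the 2 genes with the lowest p were named where none passed, and the 5 genes nearest in pattern to the most abundant member of each family. WARS1 was found under an older symbol. CASP4 and the listed genes with few or no reads were named after their values were seen. The members and lists were chosen with earlier results of these data known.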

Additional observations from a re-analysis of the deposited data

How the results depend on the processing

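The 9 tested members kept an adjusted p above 0.05 in each of the 15 alternatives, with 78 of 81 fold changes keeping their direction in the settings that used all libraries and 47 of 54 when a library was left out. Scaled by library size alone, the apolipoprotein L median was 0.032, with APOL2 at 0.020 and APOL6 at 0.044. With the gene length trend removed, that median was -0.11 and GBP5 was -0.026. Leaving out 1 library at a time, the guanylate-binding median ran from -0.020 to 0.31, GBP1 from -0.0020 to 0.46, GBP3 from -0.083 to 0.31, GBP4 from -0.020 to 0.25, GBP5 from -0.17 to 0.27, APOL1 from -0.040 to 0.087 and APOL6 from -0.077 to 0.027. Without CXCL10 replicate 3 the guanylate-binding median and 4 of its 5 genes turned below 0. The unfiltered table gave 137 calls over all genes in edgeR (45 higher, 92 lower), 0 of them members, against 0 with the filter. The cause was not tested. Deviations of same-numbered libraries had correlations over genes of 0.03, 0.02 and -0.05. So few libraries per group cannot settle whether the numbers pair cultures, which the labels do not state. With the replicate block 0 genes were called, and the guanylate-binding median was 0.14. Depth limits GBP5 most among the tested members, with 138 to 308 reads per library, of which a fragment gives up to 2.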
